A study of Mus musculus with 10 samples.

Results

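The 10 genes described here encode the lysyl oxidases Lox, Loxl1, Loxl2, Loxl3 and Loxl4, the fibulins Fbln1, Fbln2 and Fbln5, and the fibre proteins elastin (Eln) and fibrillin-1 (Fbn1). They were taken by gene symbol from a table of chromatin accessibility over 21965 mouse genes, and all 10 were found, each in 1 row. The assay was ATAC-seq, which uses a transposase to place sequencing adapters in open DNA, on about 50000 mouse embryonic fibroblasts (MEFs) per library. The MEFs, from E13.5 embryos with a GFP transgene under the Oct4 promoter, are labelled strain ICR, were infected with pMXs retroviruses and were kept in mESC medium. The 10 conditions were Sox2, Klf4, Oct4 and the Oct4 mutant L80A (Oct4-L80A) each alone, the combination of Sox2, Klf4 and Oct4 (SKO), the same combination made with the mutant (SKO-L80A), SKO plus shBrg1 (SKO+shBrg1), SKO-L80A treated with 50 µg/ml of vitamin C (SKO-L80A+Vc), SKO-L80A plus the agent labelled Ga (SKO-L80A+Ga), and the Flag control. Each condition had 1 library with 2 columns of values, so no difference below has a replicate error and none was tested. The infected populations are mixtures, and a smaller share of cells of one kind cannot be told apart from a lower accessibility per cell.

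Elastic fibres consist of a core of cross-linked elastin on a scaffold of fibrillin microfibrils. Lysyl oxidases are copper-dependent enzymes that oxidise lysines of collagen and tropoelastin, which then form covalent cross-links, and fibulins bring tropoelastin, microfibrils and these enzymes together. Fibroblasts make most of these proteins, and Lox and fibulin genes are commonly read as part of the mesenchymal programme that fibroblasts leave during reprogramming.

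The deposited signal summed to between 112439 and 370390 per column, so levels are given here as centred levels: 0.138 was added to each signal as a pseudocount, log2 was taken, and the median of all genes in the same column was subtracted. Differences are of centred levels, averaged over both columns. The column medians that centring removes differed from those of Flag by 0.73 in SKO, 0.75 in SKO-L80A, 0.31 in the library labelled Oct4, 0.12 in Klf4, -0.05 in Sox2 and -0.21 in Oct4-L80A, on the log2 scale and averaged over both columns. A gene is said to have risen or fallen only where the centred difference was at least 2-fold (1 on the log2 scale) and the higher of the compared mean signals was at least 6.92, the median value of the whole table (called the minimum signal below). Of the 15 fibroblast markers, between 9 and 13 were at the minimum signal in each condition, with a summed signal of 146 to 265. This sum and those that follow are of deposited signal, before centring. The 6 epithelial markers summed to 9.39 in Flag and to between 10.2 and 24.2 elsewhere, and the 5 smooth muscle markers to 28 to 64.3. The 4 blood markers summed to 3.21 to 11.1, the 4 endothelial markers to 9.23 to 18.4 and the 5 pluripotency markers to 6.21 to 11.1. The library labelled Oct4 had a signal of 62.9 and 55.2 over the Sox2 gene, which its label does not name, against 2.73 and 5.12 in Flag, and is called by its label below.

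RefSeq promoters (GRCm38.p6, the assembly of build mm10) were at hand for 5 of the 10 members, as 7 windows of 250 bases before an annotated start. The sequences below are those of a fibulin that fell with Sox2 (Fbln2), of a fibulin with its highest level in the library labelled Oct4 (Fbln5), and of members with little change (Fbn1 and Loxl4). Bases within the RefSeq gene span are left out, and of Fbln2, whose window lies within that span, 30 bases around a match are shown. Capitals mark matches on either strand to a Klf motif (GGGNGTGG) or a GC box (GGGCGG). They run 5′ to 3′ on the gene's strand, from chr6:91212627-91212656 (+), chr12:101819120-101819369 (-), chr2:125506486-125506688 (-) and chr19:42612807-42613056 (-) in the order printed.
Fbln2: gcatggtgagaGGGAGTGGaaagagggact
Fbln5: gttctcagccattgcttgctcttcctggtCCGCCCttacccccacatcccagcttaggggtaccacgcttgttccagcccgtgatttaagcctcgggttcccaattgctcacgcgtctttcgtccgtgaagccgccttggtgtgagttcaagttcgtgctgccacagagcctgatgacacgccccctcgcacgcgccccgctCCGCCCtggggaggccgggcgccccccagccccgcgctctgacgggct
Fbn1: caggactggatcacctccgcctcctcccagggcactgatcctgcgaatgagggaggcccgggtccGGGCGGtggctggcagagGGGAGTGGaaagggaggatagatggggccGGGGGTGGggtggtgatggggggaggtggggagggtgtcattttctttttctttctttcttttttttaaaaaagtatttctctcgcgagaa
Loxl4: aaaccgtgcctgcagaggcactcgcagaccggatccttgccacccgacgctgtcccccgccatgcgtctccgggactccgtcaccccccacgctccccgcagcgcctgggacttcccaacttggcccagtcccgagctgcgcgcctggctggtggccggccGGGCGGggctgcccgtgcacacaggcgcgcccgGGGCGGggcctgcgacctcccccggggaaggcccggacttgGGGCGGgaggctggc

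Across all 32851 promoter windows of this length, 15.9% held the Klf motif and 32.7% the GC box, against 3 and 5 of the 7 member windows. Fbln5 has 2 windows, and its Klf match lies in the one not printed, which is within the gene span. The 2 windows of Fbln1 overlap each other. The octamer ATTTGCAT was in 0 of the 7 member windows and in 1.60% of all windows. The Sox motif ACAATG (10.7% of all windows), the AP-1 motif TGANTCA (6.75%), the TEAD motif GGAATG (12.6%) and TATAAA (12.4%) were also in 0 of the 7. The matches of Fbln2 lie 126 bases (Klf motif) and 16 bases (GC box) before its start. The Loxl4 window held 27 CpG, more than in 91.4% of all windows, and the Fbln2 window held 8, more than in 57%. The sources used here do not give the window in which the authors counted reads, so whether it holds these bases is unknown.

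Lox (ENSMUSG00000024529, chromosome 18, 52516060 to 52529867), the founding lysyl oxidase, fell with Sox2, in the library labelled Oct4 and in SKO, and had its highest centred level in Flag. Sox2 had a Lox signal of 4.73 and 11.1 (columns 1 and 2), Klf4 had 11.4 and 17.6, the library labelled Oct4 had 10.1 and 11.9, Oct4-L80A had 10.8 and 23.3, and Flag had 15.3 and 26.5. In the combinations the signal was 17.1 and 15.4 in SKO, 17.5 and 21.2 in SKO-L80A, 18.8 and 15.2 in SKO+shBrg1, 9.40 and 9.46 in SKO-L80A+Vc, and 19.3 and 15.7 in SKO-L80A+Ga. As deposited signal, column 1 of 4 combinations lay above column 1 of Flag while column 2 of each lay below column 2 of Flag, so the direction depends on the scaling between libraries. On the centred scale both columns of each of the 9 other conditions lay below both columns of Flag.

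**Figure D1:**
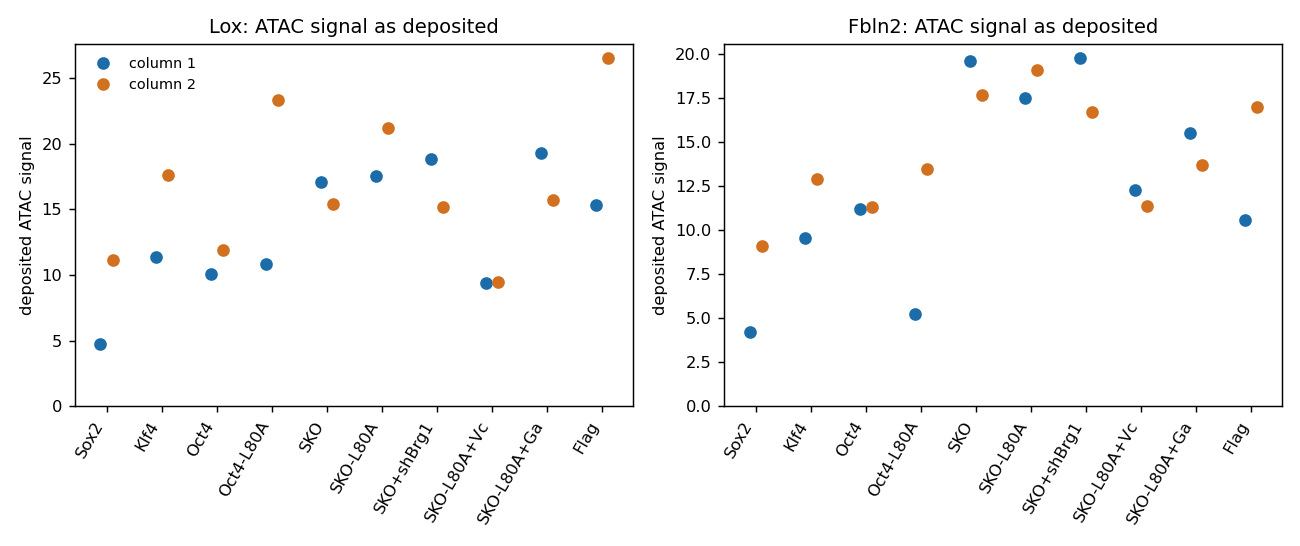
Deposited ATAC signal over Lox and Fbln2 (vertical axes) in the libraries of the 10 conditions (horizontal axes), with 1 point per column. Sox2 has the lowest column 1 of both genes, 4.73 for Lox and 4.21 for Fbln2, and the 2 columns of Flag and of Oct4-L80A lie far apart.

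The centred level of Lox was 0.37 in Sox2, 0.52 in SKO-L80A+Vc, 0.60 in the library labelled Oct4, 0.66 in SKO+shBrg1, 0.73 in SKO, 0.96 in SKO-L80A, 1.13 in SKO-L80A+Ga, 1.15 in Klf4, 1.64 in Oct4-L80A and 1.77 in Flag. The 2 columns of a condition differed by at most 0.27, against a range of 1.40 over the conditions. Of the 9 pairs of neighbours in this order, 7 were set apart by both columns. The exceptions were Klf4 beside SKO-L80A+Ga and SKO+shBrg1 beside the library labelled Oct4. Lox had the widest range of the members, and no such count was made over all genes. In Oct4-L80A the signals of 10.8 and 23.3 became centred levels of 1.63 and 1.64.

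In Sox2, Lox was 2.63-fold lower than in Flag (log2 difference -1.40, with -1.51 in column 1 and -1.29 in column 2). Lox and Fbln2 were the 2 of 10 members that fell there, while 0.234% of the 10678 genes at the minimum signal fell, and 4 of those genes had a lower difference than Lox. The Lox value was between -1.23 and -1.51 under the alternatives tried. The Sox2 gene itself had 75.5 and 87.1 in the Sox2 library against 2.73 and 5.12 in Flag.

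In the library labelled Oct4, Lox was 2.25-fold lower than in Flag (-1.17, with -1.08 and -1.26 in the columns), and it was the 1 member of 10 that fell, against a background of 0.195% of genes. Without centring the difference was -0.86 and no longer past the size rule. The signal over the Sox2 gene in this library was close to that in SKO (72.2 and 59.8). Whether it goes with the lower Lox level was not tested. Over Pou5f1, the gene of Oct4, this library had 30.8 and 24.2. Flag had 0.812 and 1.12 there, and the Sox2 library had 2.34 and 3.03. The library labelled Oct4 therefore does not separate Oct4 from Sox2.

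Oct4-L80A left Lox near its level in Flag (-0.13, with -0.11 and -0.15 in the columns). No member passed the size rule in this comparison, where 0.0288% of genes did. Set against the library labelled Oct4, Lox was 2.05-fold higher in Oct4-L80A (1.03, with 0.96 in column 1 and 1.10 in column 2), at centred levels of 1.64 and 0.60. It was 1 of 6 genes that rose, or 0.0534% of those at the minimum signal, and the other 9 members did not pass the rule. This value also lies at the edge of the rule: it was 0.998 after quantile normalisation and 0.982 with a pseudocount 4 times larger. Without centring it was 0.52, as the column medians differed by -0.88 in column 1 and -0.15 in column 2. No member passed under these 3 alternatives. Over the Sox2 gene, Oct4-L80A had a signal of 2.37 and 5.47 where the library labelled Oct4 had 62.9 and 55.2, so the mutation and the Sox2 signal cannot be told apart here.

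In SKO, Lox was 2.06-fold lower than in Flag (-1.04, with -1.07 and -1.01 in the columns), and it was again the 1 member that fell, against 0.305% of genes. This value lies at the edge of the rule: it was -0.94 when levels were centred on genes at the minimum signal, -0.88 after quantile normalisation and -0.31 without centring. In SKO-L80A the difference from Flag was -0.81 (-0.77 and -0.85), and 0 of 10 members passed the rule, against 1.74% of genes in either direction. In Klf4 it was -0.62 (-0.71 and -0.53), and 0 members passed, against 1.52% of genes. The comparisons with Flag share the Flag library, so its values enter each of them.

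Within the combinations Lox differed less. SKO-L80A was above SKO by 0.23 (0.30 and 0.16 in the columns), with no overlap of the columns, and SKO+shBrg1 differed from SKO by -0.07 (0.06 without centring), with columns of -0.01 and -0.14. Vitamin C went with a lower Lox level, at -0.44 in SKO-L80A+Vc against SKO-L80A (-0.44 and -0.43 in the columns), and 0.68% of genes at the minimum signal had a lower difference. Without centring this difference was -1.02, past the size rule, as the column medians differed by -0.58. The Sox2 gene had 22 and 22.5 in SKO-L80A+Vc and 38.5 and 51.8 in SKO-L80A, as deposited signal before centring. With vitamin C, deposited signal was also lower over Klf4 (39.9 and 39.7, against 62.6 and 83.5). The same held for Pou5f1 (8.59 and 10.4, against 15.4 and 27.5). Treatment with Ga likewise had a lower Sox2 signal (28.6 in column 1, 28 in column 2), while its centred Lox level was higher. Whether the Sox2 signal goes with the Lox level was not tested. In SKO-L80A+Ga, Lox differed from SKO-L80A by 0.17, and by -0.15 without centring. No member passed the size rule in these 4 comparisons, in which 0.0158% (SKO-L80A against SKO), 0.00781% (SKO+shBrg1 against SKO), 0.00801% (SKO-L80A+Vc against SKO-L80A) and 0% (SKO-L80A+Ga against SKO-L80A) of genes did.

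**Figure D2:**
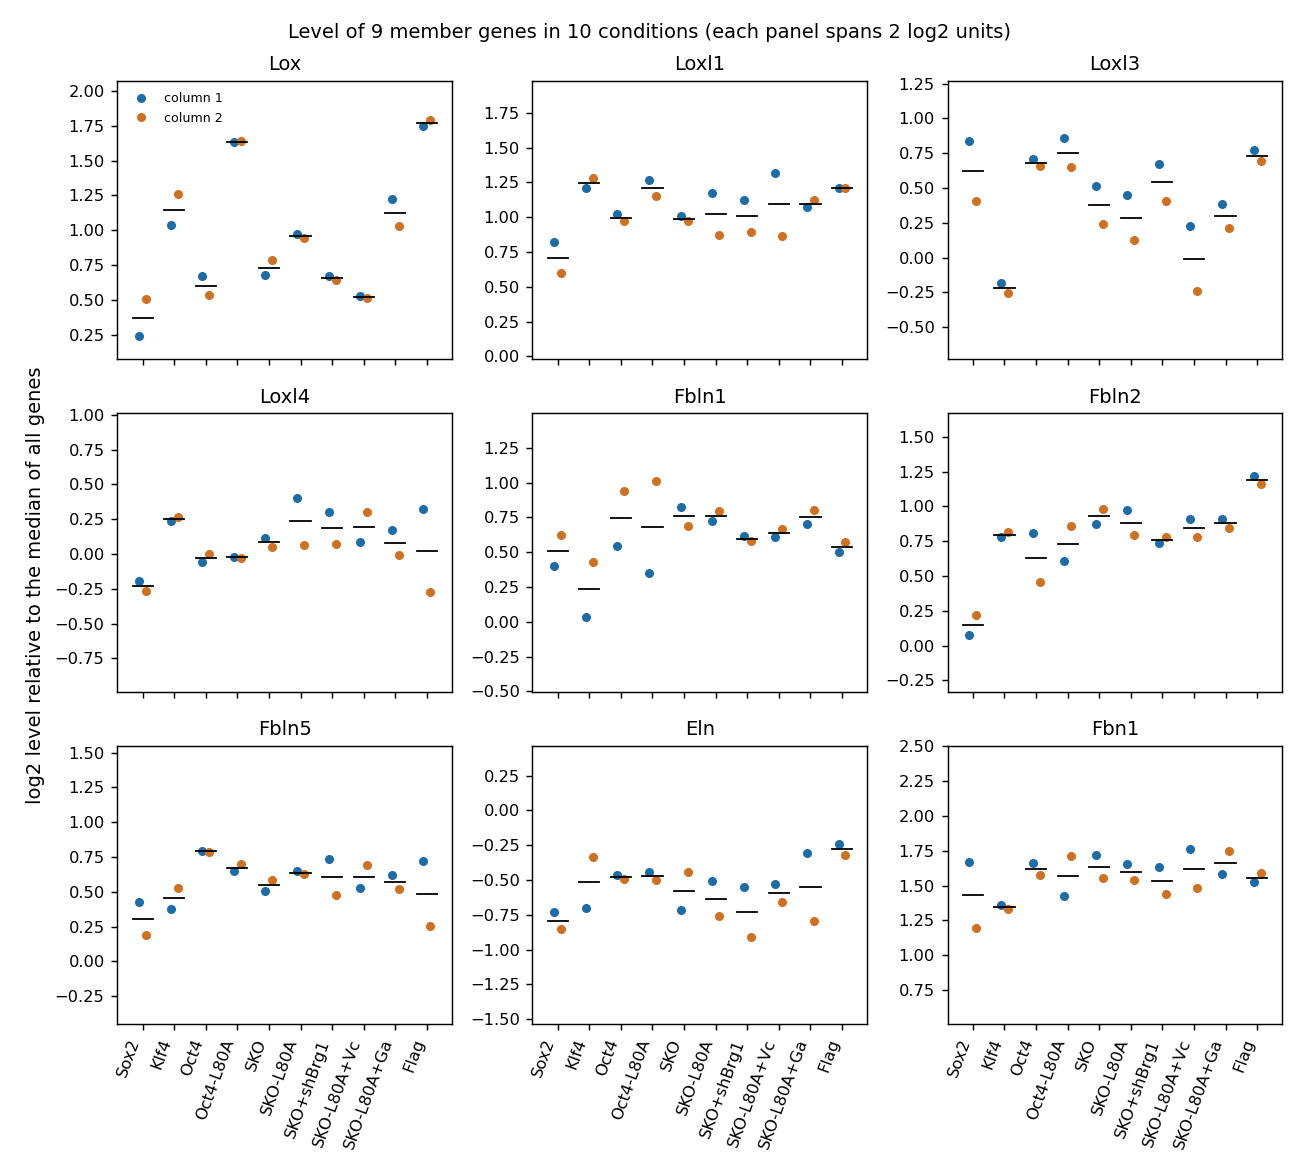
Centred log2 level (vertical axes, each panel spanning 2 log2 units) of 9 members in the 10 conditions (horizontal axes). Points are the 2 columns of a library and bars their mean; Lox runs from 0.37 in Sox2 to 1.77 in Flag with columns close together, while Fbn1 stays between 1.34 and 1.67.

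Loxl1 (ENSMUSG00000032334, chromosome 9, 58287723 to 58313212), the paralog that acts on elastin in mice, was lowest in Sox2, with a signal of 7.15 and 11.9 against 10.5 and 17.6 in Flag. Its centred difference there was -0.50 (-0.39 and -0.61), under 2-fold, and 4.75% of genes had a lower one. Klf4 (1.25), Oct4-L80A (1.21) and Flag (1.21) had the highest centred levels of Loxl1 and could not be set apart from each other. Its level in Sox2 (0.71) lay below that in SKO (0.99) in both columns.

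Loxl3 (ENSMUSG00000000693, chromosome 6, 83034205 to 83052566), a lysyl oxidase of the scavenger-receptor branch, was lowest in Klf4. The signal was 4.84 and 6.08 in Klf4 against 7.69 and 12.3 in Flag. The centred difference of -0.95, with -0.95 in each column, was just under 2-fold, and 63 of the 11000 genes at the minimum signal had a lower one. Sox2 (-0.11) and the library labelled Oct4 (-0.05) lay near Flag, with overlapping columns. SKO-L80A+Vc had the next lowest Loxl3 level, -0.01, below Flag in both columns.

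The row of Loxl3 is nearly that of a neighbour. Dok1, an adaptor protein of tyrosine kinase signalling, lies 710 bases from Loxl3 in the annotation, and its values were within 1% of those of Loxl3 in 15 of 20 columns and at most 11.1% apart. In Klf4 against Flag, Dok1 had a centred difference of -0.95 as well. The signal over the pair therefore cannot be assigned to Loxl3 rather than Dok1.

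**Figure D3:**
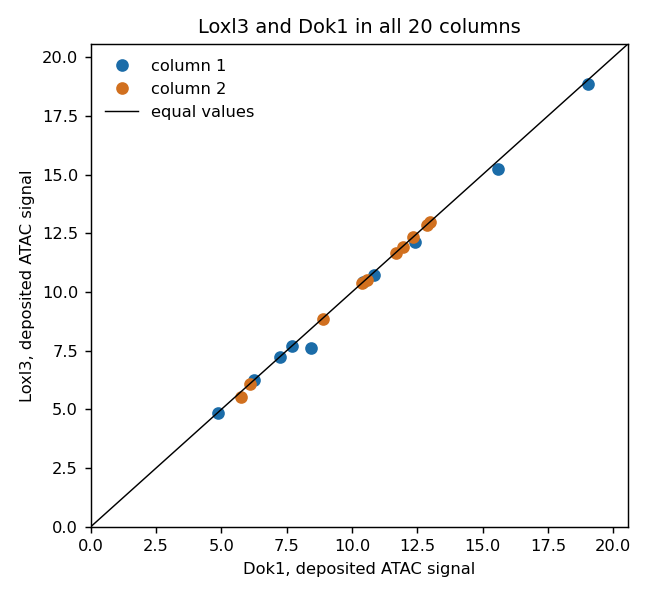
Deposited ATAC signal of Loxl3 (vertical axis) against that of Dok1 (horizontal axis) in all 20 columns, with the line of equal values. The points lie on the line or just below it, and the farthest differs by 11.1%.

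Loxl2 (ENSMUSG00000034205, chromosome 14, 69608692 to 69695834), which cross-links basement membrane collagen, had no usable values. Its highest signal over the 20 columns was 0.0061, and 310 rows of the table, Loxl2 among them, carried exactly the same 20 values. R3hcc1, whose gene lies 1470 bases away, had 9.91 and 14.3 in Flag. The row is given no difference here. The cause was not tested.

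Loxl4 (ENSMUSG00000025185, chromosome 19, 42592279 to 42612806), also of the scavenger-receptor branch, overlapped Flag in all 9 other conditions. Its centred level ran from -0.23 in Sox2 to 0.25 in Klf4, while the columns of Flag alone lay 0.59 apart (0.32 and -0.27). In deposited signal it had 11.5 and 9.20 in SKO and 14.5 and 10.2 in SKO+shBrg1, against 5.59 and 6.24 in Flag, a difference that centring reduced to 0.06 for SKO.

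Among the fibulins, Fbln2 (ENSMUSG00000064080, chromosome 6, 91212460 to 91272540), which binds fibronectin and elastic fibre proteins, fell in Sox2. The signal was 4.21 and 9.08 in Sox2 against 10.6 and 17.0 in Flag, a 2.06-fold lower level (-1.04, with -1.15 and -0.94 in the columns), and 21 genes had a lower difference. The value was -0.91 when centred on genes at the minimum signal, -0.94 after quantile normalisation and -0.996 with a pseudocount 4 times larger, each below the 2-fold limit. Like Lox, Fbln2 had both Flag columns above both columns of all 9 other conditions. Of 11447 genes with a mean signal at the minimum, 797 (6.96%) did so, which is the background for these 2 members.

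The other conditions left Fbln2 between Sox2 and Flag. Its centred level was 0.15 in Sox2, 0.63 in the library labelled Oct4, 0.73 in Oct4-L80A, 0.76 in SKO+shBrg1, 0.80 in Klf4, 0.84 in SKO-L80A+Vc, 0.88 in SKO-L80A+Ga and in SKO-L80A, 0.93 in SKO and 1.19 in Flag. Sox2 lay below the library labelled Oct4 in both columns, and SKO lay below Flag in both on the centred scale, where the difference was -0.26, against 0.47 without centring. Fbln2 differed by 0.10 between Oct4-L80A and the library labelled Oct4, with columns of -0.21 and 0.40 that overlap, and by -0.41 without centring. The difference between Lox and Fbln2 in this comparison was not tested. Hdac11, a neighbour 37768 bases away, had -0.24 in Sox2 against Flag, and Wnt7a, 91441 bases away on the other side and below the minimum signal, had 0.38. Of the neighbours of Lox, Srfbp1, 24127 bases away, had -0.22 in Sox2, -0.34 in the library labelled Oct4 and -0.32 in SKO. Zfp474, 86039 bases away, had -0.84 in Sox2, -0.72 in the library labelled Oct4 and -1.33 in SKO, all below the minimum signal, with 1.55 and 3.61 in SKO against 2.64 and 5.05 in Flag.

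Fbln5 (ENSMUSG00000021186, chromosome 12, 101746565 to 101819119), which tethers tropoelastin and Loxl1 to microfibrils, was highest in the library labelled Oct4. There it had a signal of 11.1 and 14.3 against 7.42 and 9.04 in Flag, a centred difference of 0.31 (0.08 and 0.53) that did not reach 2-fold, with no overlap of the columns. It overlapped Flag in the 8 other conditions. Its lowest centred level was 0.31 in Sox2, against 0.49 in Flag.

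Fbln1 (ENSMUSG00000006369, chromosome 15, 85205949 to 85286294), a fibulin of basement membranes and blood vessels, was above Flag in both columns in all 5 SKO-based conditions, by 0.22 in SKO and in SKO-L80A. Of genes at the minimum signal, 86.8% in SKO and 87.6% in SKO-L80A had a lower difference. The 5 conditions share the Flag library, and the share of all genes above it in all 5 was not computed. Its signal was 18.9 and 14.4 in SKO and 14.7 and 19.1 in SKO-L80A against 6.36 and 11.3 in Flag. In Klf4, with 5.66 and 9.85, Fbln1 was below Flag by 0.30, and 32.5% of genes at the minimum signal had a lower difference. Oct4-L80A had columns 0.66 apart on the centred scale, the widest gap of any condition for this gene.

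Elastin itself (Eln, ENSMUSG00000029675, chromosome 5, 134702595 to 134747368) stayed below the minimum signal in 19 of 20 columns, so it could not pass the size rule. It was lowest in Sox2, with 2.35 and 4.25 against 3.75 and 6.02 in Flag and a centred difference of -0.51 (-0.49 and -0.53). On the centred scale both columns lay below Flag in 8 of the 9 other conditions, and SKO-L80A+Ga overlapped. The share of all genes that did so was not computed. The median difference of all genes from Flag was -0.03 in Sox2, -0.10 in Klf4, -0.12 in the library labelled Oct4 and 0.05 in Oct4-L80A. It was -0.23 in SKO and in SKO-L80A, where Eln had -0.30 and -0.35. The differences of Eln from Flag in Klf4, the library labelled Oct4, Oct4-L80A, SKO and SKO-L80A were between -0.19 and -0.35. Without centring Eln was above Flag by 0.11 in the library labelled Oct4, 0.43 in SKO and 0.39 in SKO-L80A.

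Fbn1 (ENSMUSG00000027204, chromosome 2, 125300594 to 125506485), which builds the microfibril scaffold and holds latent TGF-beta complexes, was the steadiest member. Its centred level ranged over 0.32, between 1.34 in Klf4 and 1.67 in SKO-L80A+Ga, and its columns within a condition lay up to 0.48 apart. Its signal was 14.3 and 18.5 in Klf4 and 24.8 and 25.8 in SKO-L80A+Ga, against 13.1 and 23.0 in Flag. Klf4 was the 1 condition in which both columns lay below Flag (-0.21). This is near the median of all genes at the minimum signal (-0.19), and 47.0% of them had a lower difference. The row of Gm9913 was within 1% of that of Fbn1 in 13 of 20 columns, so these values may also be those of Gm9913.

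**Figure D4:**
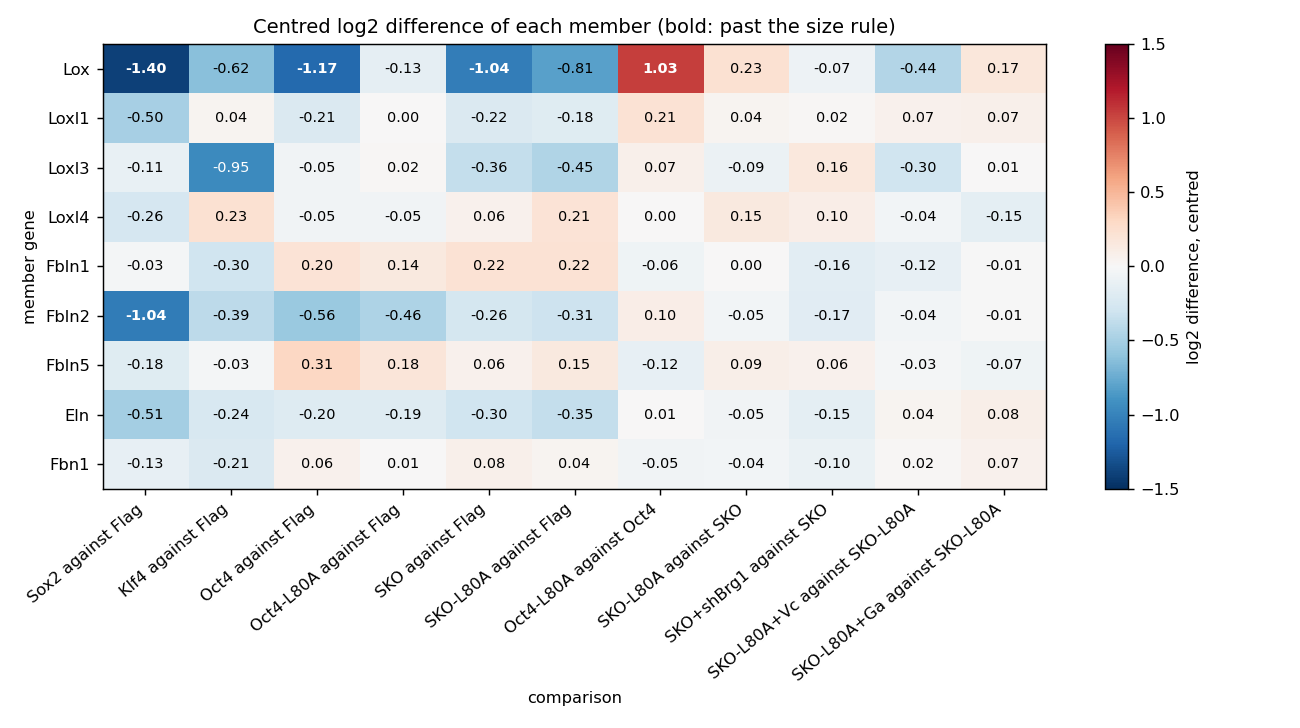
Centred log2 difference of 9 members (rows) in the 11 comparisons (columns), with the first-named condition minus the second. Bold values are past the size rule: Lox at -1.40, -1.17, -1.04 and 1.03, and Fbln2 at -1.04.

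Over all 10 members the median centred difference from Flag was -0.22 in Sox2, -0.23 in Klf4, -0.13 in the library labelled Oct4, 0.01 in Oct4-L80A and -0.24 in SKO and in SKO-L80A. Over all 21965 genes it was -0.03 in Sox2, -0.10 in Klf4, -0.12 in the library labelled Oct4, 0.05 in Oct4-L80A and -0.23 in SKO and in SKO-L80A. Without Loxl2, whose row is uninformative, the median of the other 9 members was -0.26 in Sox2, -0.24 in Klf4, -0.05 in the library labelled Oct4, 0.00 in Oct4-L80A, -0.22 in SKO and -0.18 in SKO-L80A. The members at the minimum signal had a median of -0.18 in Sox2, -0.26 in Klf4, -0.05 in the library labelled Oct4, 0.01 in Oct4-L80A, -0.08 in SKO and -0.07 in SKO-L80A. All genes at that signal had -0.17 in Sox2, -0.19 in Klf4, -0.06 in the library labelled Oct4, -0.07 in Oct4-L80A and -0.13 in SKO and in SKO-L80A. In Sox2, all 7 members at the minimum signal lay below 0, as did 77.0% of all such genes, and in SKO 4 of 8 members did, as did 69.0% of all such genes. In the 5 other comparisons the median of all 10 members lay between -0.09 and 0.04.

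The values of the members across the 10 conditions followed different orders. Pearson's r over the 10 conditions, given as a description of points that share libraries and scaling, was 0.78 between Lox and Loxl1, 0.78 between Lox and Eln, and 0.61 between Lox and Fbln2. Fbln1 and Fbn1 had r of 0.93 with ranges under 0.6, and Loxl3 and Loxl4 had -0.71. Among 11446 genes at the minimum mean signal, the patterns most like that of Lox belonged to Tmem204 (r of 0.98), Actrt3 (0.97), Kdm5a (0.96), Sgcd (0.96) and Fgfr1 (0.96). Sgcd, a dystrophin-complex sarcoglycan, had 6.53 and 11.1 in Sox2 and 9.84 and 13.9 in the library labelled Oct4, against 11.7 and 20.3 in Flag. These 5 genes ranged over 0.25 to 0.79 on the centred scale, less than the 1.40 of Lox.

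The wider pathway was described with 32 partners of elastic fibres, which include other fibulins and microfibril proteins, latent TGF-beta binding proteins, emilins, procollagen proteinases and elastin-degrading enzymes. None of the 32 passed the size rule in any of the 11 comparisons, and between 15 and 24 of them reached the minimum signal. In Sox2 against Flag the partners at the minimum signal had a median of -0.20, against -0.17 for all such genes. The largest differences there were at Tgfb3, a TGF-beta ligand, with 6.22 and 10.1 in Sox2 against 10.8 and 17.3 in Flag (-0.72), and at Ltbp1, which tethers latent TGF-beta to fibrillin, with 7.32 and 12.7 against 13.4 and 18.7 (-0.65). Ltbp1 was below Flag in all 6 comparisons with Flag, with centred differences between -0.59 and -0.93, the lowest in Klf4. Without centring SKO was at 0.12 and SKO-L80A was not below Flag. The 6 comparisons share the Flag library, and 63.1% to 77.0% of genes at the minimum signal lay below 0 in each. The share of all genes below Flag in all 6 was not computed.

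Other partners differed in both directions without reaching 2-fold. Mfap5, a microfibril-associated glycoprotein, was higher in Klf4, at 8.0 and 10.4, than in Flag, at 3.28 and 6.46 (0.84). In Sox2 it had 1.91 and 2.90, below the minimum signal (-0.87). Ltbp4, which acts in elastic fibre assembly, had a signal of 32.6 and 22.2 in SKO, where Flag had 9.11 and 15.6 (0.44 after centring). In SKO-L80A+Vc against SKO-L80A the largest difference was at Tgfb1, with 11.7 and 11.8 against 23.0 and 23.4 (-0.40).

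**Figure D5:**
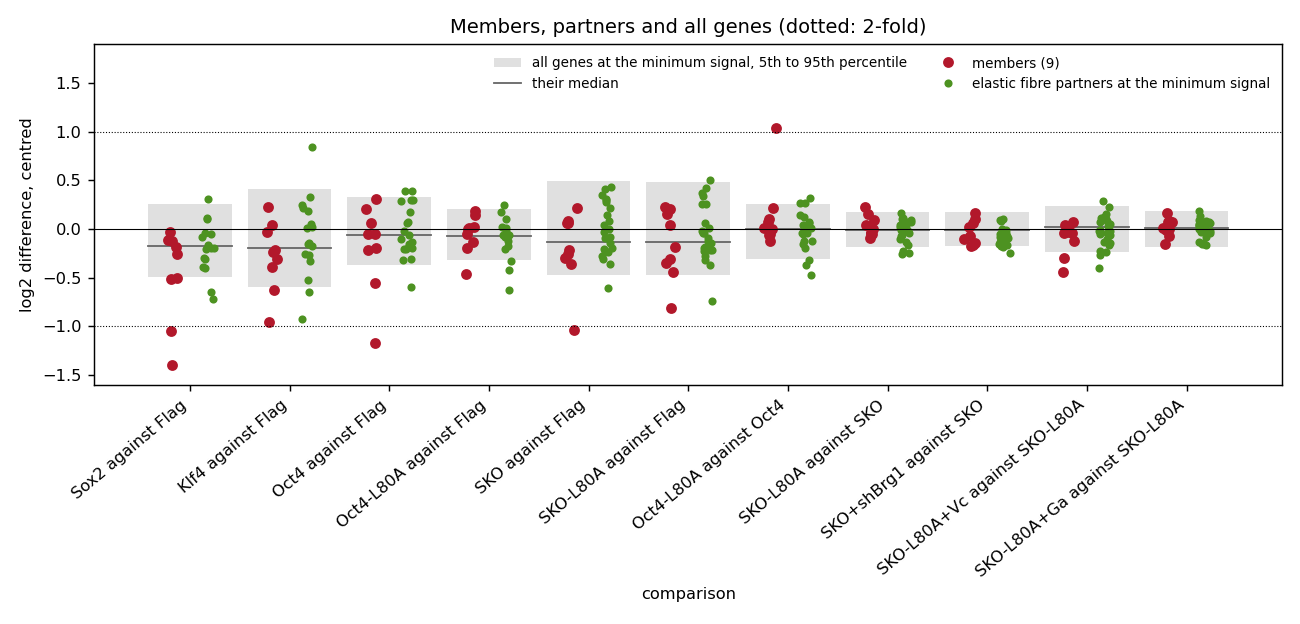
Centred log2 differences (vertical axis) in the 11 comparisons (horizontal axis) for 9 members and for the elastic fibre partners at the minimum signal, over the 5th to 95th percentile of all genes at that signal. Lox lies outside the 2-fold lines in 4 comparisons and Fbln2 in 1, while every plotted partner stays within them.

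The fibroblast markers at the minimum signal lay mostly below 0 in the comparisons with Flag. In Sox2 against Flag, 0 of 15 passed the rule, and the 10 at the minimum signal had a median of -0.41 and all lay below 0, against a median of -0.17 over all genes at that signal. In the library labelled Oct4, 0 of 15 passed, and the 10 at the minimum signal had a median of -0.32 and all lay below 0, against -0.06 over all such genes. In SKO, 0 of 15 passed, and the 11 at the minimum signal had a median of -0.44, with 10 below 0, against -0.13 over all such genes. In SKO-L80A the median of 12 markers was -0.48, with 10 below 0, against -0.13 over all such genes. In Klf4, Fn1, the fibronectin gene, fell, with 15.0 and 19.9 against 25.9 and 41.4 in Flag (-1.04), where 53 of 11000 genes fell. The 10 markers at the minimum signal in Klf4 had a median of -0.49, against -0.19 over all such genes. In Oct4-L80A, Thy1, a surface marker of fibroblasts, rose, with a signal of 5.72 and 11.3 where Flag had 3.01 and 5.46 (1.17). There 2 of the 10433 genes at the minimum signal rose. Centring removes 0.12 between Klf4 and Flag and -0.21 between Oct4-L80A and Flag. Without it, Fn1 and Thy1 were both under 2-fold in these comparisons. In Oct4-L80A the 11 markers at the minimum signal had a median of -0.20. Of them, 10 lay below 0, against 68.3% of all such genes. Of the 6 epithelial markers, Krt8, a keratin, rose in SKO, with 9.11 and 7.26 against 1.68 and 3.14 in Flag (1.03). In SKO 169 of the 12475 genes at the minimum signal rose. Krt8 was the 1 epithelial marker at that signal, and the centred median of all 6 was -0.17. Their summed deposited signal was 21.1 in SKO against 9.39 in Flag, without centring, which removes 0.73 on the log2 scale between these conditions. The smooth muscle markers summed to 59.1 in SKO against 33 in Flag, also as deposited signal, and 0 of 5 passed the rule. After centring, the 4 at the minimum signal had a median of -0.08, with 3 below 0. All genes at that signal had a median of -0.13, with 69.0% below 0. The part of such marker changes in the values of Lox and Fbln2 was not tested.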

How the data were processed

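ATAC density was measured in 10 libraries, 1 per condition. The signal values are the authors' own, deposited in a table with 2 columns per condition. Bowtie2 2.2.5 and MACS2 2.1.0 are named, with build mm10, in the submitters' processing notes, as are DESeq2 1.22.2, Trimmomatic 0.35, bedtools 2.25.0, SAMtools 1.3.1, deepTools, cutadapt 1.13 and Picard. The sources used here do not give the role of each tool, the window per gene, the scaling or the number of reads, so the depth behind a value is unknown and no interval was computed. What the 2 columns of a condition are is also not given, and they were counted as 1 replicate. Over the 45 pairs of conditions, columns of the same number correlated better than columns of different number in all 45. Among the 5 SKO-based conditions, same-numbered columns of different conditions had r of 0.966 to 0.986, higher than the 0.921 to 0.952 between the 2 columns of a condition. Differences were taken within a column number.

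The pseudocount was the 10th percentile of values above 0, and each column was centred on the median of all its genes. Column sums differed by more than 3-fold within the table. Genes at the minimum signal then had medians between -0.19 and 0.02 in the 11 comparisons. Python 3.11.15, numpy 2.4.6 and pandas 2.3.3 were used, and the calls were tested on simulated data. Members and lists were chosen with earlier results of these data known. All members are named, with partners past the size rule or, failing that, those with the largest differences, and the 5 genes most like the member of widest range. Coordinates come from RefSeq by symbol. Rows nearly equal to a member's, genes beside members, pair correlations and 2 alternatives were looked at after the data were seen.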

Additional observations from a re-analysis of the deposited data

How the results depend on the processing

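No paired analysis was possible because each condition has 1 library and the labels give no replicate numbers. The columns carry numbers, differences were already taken within a number, and their average over both columns is the same under either pairing. Given here are the medians over the members that moved by more than the spread of the 2 columns, which was near 0 for the Sox2 median, and the counts past the size rule that changed by over 1.5 times.

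Without centring, medians were -0.27 (Sox2), 0.18 (library labelled Oct4), -0.20 (Oct4-L80A), 0.49 (SKO) and 0.50 (SKO-L80A) against Flag, -0.47 (Oct4-L80A against the library labelled Oct4), 0.046 (SKO+shBrg1 against SKO), and, relative to SKO-L80A, -0.62 with vitamin C and -0.27 with Ga. Counts were then 0 for the library labelled Oct4 and SKO against Flag and for Oct4-L80A against the library labelled Oct4, and 1 for vitamin C. Quantile normalisation gave medians of -0.20 (Sox2), -0.060 (SKO) and -0.043 (SKO-L80A) against Flag. It gave a count of 1 in Sox2, of 0 in SKO and of 0 between Oct4-L80A and the library labelled Oct4, where Lox was at 0.998. A pseudocount 4 times larger gave -0.20 in Sox2 and those same 3 counts, and one 4 times smaller gave -0.22. Centring on genes at the minimum signal, added after the data were seen, gave -0.087 and 1 in Sox2 and -0.14 and 0 in SKO. Leaving out Loxl2, also added later, gave -0.26 in Sox2. Column 1 alone gave -0.34 (Sox2) and -0.11 (Oct4-L80A) against Flag, 0.16 (SKO-L80A against SKO), 0.057 (SKO+shBrg1) and -0.046 (SKO-L80A+Ga), and a count of 0 for Oct4-L80A against the library labelled Oct4. Column 2 alone gave -0.34 and 1 in Sox2, -0.15 in SKO and 0.10 for Oct4-L80A against the library labelled Oct4. The median range of a member over the conditions was 0.53 and, without centring, 1.22. Of the member values past the size rule, 0 changed sign under the alternatives, while smaller ones did without centring, as the medians did. The cause of these moves was not tested.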
